A study of Caenorhabditis elegans with 2 samples.

Results

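The annular furrow collagens of Caenorhabditis elegans are 6 genes, dpy-2, dpy-3, dpy-7, dpy-8, dpy-9 and dpy-10, taken here as a listed group out of 19973 nuclear protein-coding genes. Binding of the GATA factor ELT-3 near them was read from ChIP-seq peak lists. The chromatin came from whole L1 larvae of strain OP75, of mixed sex, in 2 biological replicates. That strain carries unc-119(ed3) III and the transgene wgIs75, from which ELT-3 is made with a GFP-FLAG tag at its C-terminus; the promoter that drives the transgene is not given in the sources used here. All samples belong to this 1 group, and a control used by the authors for peak calling was not analysed here. Because whole larvae were used, stronger binding in a few cells and weaker binding in many cannot be told apart.

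The cuticle is an extracellular coat that the epidermis secretes anew at each molt, and most of it is collagen. Its surface is ringed by annuli separated by furrows, and each of the 6 furrow collagens is needed for furrows to form: worms that lack any of them are short and fat (the dumpy phenotype that gives the dpy genes their name). Loss of furrows also switches on antimicrobial, osmotic and detoxification genes in the epidermis, for which nlp-29, gpdh-1 and gst-4 are common reporters. ELT-3 is expressed in the epidermis and binds GATA sequences.

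No furrow collagen gene had a peak in the IDR set, against 5.37% of all protein-coding genes. The authors filtered that set by irreproducible discovery rate, which is meant to keep peaks that rank consistently high in both replicates. A peak shared by both replicate lists lay in the windows of 3 of the 6, against 20.1% of all genes. These 3 lie at 2 loci. The genes dpy-10 and dpy-2 face away from each other on chromosome II and share their peaks, and dpy-9 is on chromosome IV. The X-linked genes dpy-3, dpy-7 and dpy-8 had no peak shared by the replicates. The window examined for each gene ran from 3 kb upstream of the annotated 5′ end to the end of the gene. Peaks were assigned by their summit, and ranks are by the authors' signal value within each list, with 1 the strongest. The lists held 1014 peaks (IDR set), 30000 (both replicates pooled), 17087 (replicate 1) and 7079 (replicate 2) on the ce11 build. The last 3 include background by their labels, so a low-ranked row need not be a binding site. How the ce11 IDR set was made from the other lists cannot be followed row by row: 0 of its 1014 peaks had the same start and end as a pooled peak, although 989 overlapped one, and its median peak width was 256 bp, against 284 bp in the pooled list. Of the 1014 strongest pooled peaks, 623 overlapped an IDR peak and 391 did not. The absence of a gene from the IDR set is therefore given beside its ranks in the other lists. No tests were run, since the samples form a single group with nothing to compare it with, and the values below are descriptions.

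The sequences printed here are those under the peaks shared by the replicates and, for contrast, upstream stretches with GATA sites but no such peak. They are from the ce11 assembly (WBcel235), read 5′ to 3′ on the strand of the named gene, with GATA sites in capitals. A GATA site here is the hexamer AGATAA, or the hexamer AGATAG, or the hexamer TGATAA, or the hexamer TGATAG, on either strand, so that TTATCT and also TTATCA mark sites on the opposite strand. The first stretch (chrII:6712527-6712713, minus strand) holds the dpy-10 summits of both replicates and of the pooled list. The next (chrII:6713958-6714058, plus strand) is centred on the weaker pooled summit before dpy-2. The dpy-9 stretch (chrIV:259205-259454, minus strand) is the 250 bases before that gene. The dpy-3 stretch (chrX:2145648-2145897, minus strand) is the 250 bases before a gene with no summit in any list, and the dpy-7 stretch (chrX:7537914-7537939, minus strand) surrounds its TGATAA 137 bp upstream.
dpy-10: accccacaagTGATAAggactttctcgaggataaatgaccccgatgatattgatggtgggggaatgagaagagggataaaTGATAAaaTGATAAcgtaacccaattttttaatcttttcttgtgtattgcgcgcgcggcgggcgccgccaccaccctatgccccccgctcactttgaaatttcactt
dpy-2: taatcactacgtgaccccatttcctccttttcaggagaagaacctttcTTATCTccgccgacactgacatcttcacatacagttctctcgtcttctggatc
dpy-9: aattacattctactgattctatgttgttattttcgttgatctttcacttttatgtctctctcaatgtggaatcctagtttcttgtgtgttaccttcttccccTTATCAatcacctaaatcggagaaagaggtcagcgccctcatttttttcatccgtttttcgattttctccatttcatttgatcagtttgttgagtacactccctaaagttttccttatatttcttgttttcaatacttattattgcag
dpy-3: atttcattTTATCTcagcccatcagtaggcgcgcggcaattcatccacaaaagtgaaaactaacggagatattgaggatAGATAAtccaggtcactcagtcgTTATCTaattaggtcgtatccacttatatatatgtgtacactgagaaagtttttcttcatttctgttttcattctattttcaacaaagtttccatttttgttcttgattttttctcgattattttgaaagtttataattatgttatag
dpy-7: ttcaattcatTTATCAcaccctgttc

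The strongest furrow collagen peak lay just upstream of dpy-10, a cuticle collagen gene also widely used as a marker in genome editing (WBGene00001072; II, 6710149 to 6712227, minus strand). Its summit was at 6712577 in the pooled list, 350 bp upstream of the annotated 5′ end. There it had a signal of 64.5 and ranked 821 of 30000. In replicate 1 the summit was at 6712600, 373 bp upstream, with a signal of 21.0 and rank 1217 of 17087. In replicate 2 it was at 6712647, 420 bp upstream, with a signal of 43.2 and rank 739 of 7079. The replicate summits were 47 bp apart and the peaks overlapped by 240 bp, so the replicates placed the peak at about the same position and both in the upper part of their lists.

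The annotation around this peak is crowded. The summits lay in an intron of T14B4.19, a protein-coding gene model that starts further upstream and overlaps dpy-10, and in the exon of T14B4.14, an annotated non-coding RNA. The 5′ end of T14B4.19 was 354 bp from the pooled summit, about as far as that of dpy-10. For replicate 1 the distances were 331 bp to T14B4.19 and 373 bp to dpy-10, and for replicate 2 they were 284 and 420 bp. Distance alone therefore does not assign the peak to dpy-10. The coding sequence of dpy-10 begins 361 bp inside its annotated 5′ end.

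Of the 4 GATA sites in the 1000 bp upstream of dpy-10, 3 lay under this peak in every list, and these 3 read TGATAA on the gene's own strand. They begin 398, 406 and 476 bp upstream of the 5′ end, so the closest of them start 8 bp apart and the third starts 70 bp further on. The centre of the site at 406 was 16.5 bp from the replicate 2 summit, 30.5 bp from the replicate 1 summit and 53.5 bp from the pooled summit. Within 50 bp of the summit there were 2 sites in replicate 1, 2 in replicate 2 and 1 in the pooled list. As background, 5.88% of all replicate 1 summits and 9.72% of all replicate 2 summits had 2 or more sites that close, as did 22.9% of IDR summits. The 250 bp next to the dpy-10 5′ end held none.

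The same peak fell in the window of dpy-2, a furrow collagen gene transcribed in the opposite direction (WBGene00001064; II, 6714292 to 6715971, plus strand). The 5′ ends of dpy-10 and dpy-2 are separated by 2064 bp, which held 8 GATA sites, 6 of them TGATAA. The dpy-10 peak was 1715 bp upstream of dpy-2 in the pooled list. Closer to dpy-2 lay a second and much weaker peak, 284 bp upstream in the pooled list, with a signal of 27.2 and rank 4485. An AGATAA on the opposite strand had its centre 0.5 bp from that summit. In replicate 1 the peak was 268 bp upstream with a signal of 8.23 and rank 13779. In replicate 2 the nearest peak was 499 bp upstream with a signal of 16.0 and rank 6409, near the bottom of that list. These replicate summits were 231 bp apart and the peaks overlapped by 56 bp, so the replicates matched poorly there, and no GATA site lay within 50 bp of the replicate 2 summit.

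The third gene with a peak in both replicates was dpy-9, another collagen needed for furrows (WBGene00001071; IV, 257403 to 259204, minus strand). The pooled summit at 259355 was 151 bp upstream, with a signal of 41.2 and rank 1996. In replicate 1 the summit was 193 bp upstream, with a signal of 16.1 and rank 2140, and in replicate 2 it was 139 bp upstream, with a signal of 24.6 and rank 2331. The replicate summits were 54 bp apart and the peaks overlapped by 233 bp. This peak was intergenic, the nearest 5′ end was that of dpy-9 in each list, and the next was that of R02D3.8, 2152 bp from the pooled summit. It was closer to its gene than the dpy-10 peak but ranked lower in every list.

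One TGATAA, on the opposite strand and 148 bp upstream of dpy-9, is the single site in the 250 bases printed above. Its centre was 5.5 bp from the pooled summit, 6.5 bp from the replicate 2 summit and 47.5 bp from the replicate 1 summit. The whole dpy-9 window was otherwise poor in such sites, with 5 in all or 1.04 per kb, and 4.37% of genes had a lower density. Other pooled rows in the dpy-9 window, 422 bp inside the gene and 2803 bp upstream within pat-6, ranked 25273 and 18697 and had no counterpart in either replicate.

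The remaining genes, all X-linked, lacked a shared peak, as most genes did: 20.1% of all protein-coding genes had one. For dpy-7, a furrow collagen gene whose promoter is widely used to drive epidermal expression (WBGene00001069; X, 7536467 to 7537792, minus strand), the pooled rows 196 and 1461 bp upstream had signals of 15.8 and 14.5 and ranked 22942 and 28644. Replicate 1 held 1 row, 537 bp upstream, with a signal of 7.85 and rank 15608, and replicate 2 held none. The dpy-7 5′ end is only 16 bp from the gene upstream, glb-16, which is on the same strand, and all of these rows lay over glb-16 exons. None of the summits had a GATA site within 50 bp.

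For dpy-8, also required for furrows (WBGene00001070; X, 5148804 to 5150476, minus strand), there was 1 pooled row, 2251 bp upstream in an intron of C31H2.3, with a signal of 16.1 and rank 21633, and no row in either replicate. For dpy-3, the sixth furrow collagen gene (WBGene00001065; X, 2144605 to 2145647, minus strand), no list had a summit in the window. The closest pooled rows were past its 3′ end, 281 and 1599 bp outside the window, and ranked 26213 and 14001. None of these low-ranked rows recurred in both replicates.

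GATA sites near the gene start did not separate the genes with peaks from those without. Between 250 bp before and 50 bp after the 5′ end, 3 of the 6 genes had a site, against 54.5% of all protein-coding genes and 62.9% of the 170 other collagen genes. They were dpy-3 with 3 sites, dpy-7 with 2 and dpy-9 with 1. The 3 dpy-3 sites all read AGATAA on one strand or the other, at 148, 171 and 242 bp upstream, yet no summit was listed there. The dpy-7 sites were a TGATAA 137 bp upstream and an AGATAA that begins 2 bp upstream. The TGATAA lay inside the pooled row of rank 22942, 61.5 bp from its summit. With 1000 bp upstream, all 6 genes had a site, as did 90.9% of all genes. Over the full windows dpy-3 had the densest sites, 15 or 3.71 per kb, a density above that of 91.6% of genes, whereas the median over all genes was 2.40 per kb. Thus the gene with the most sites had no summit and the one with the fewest, dpy-9, had a peak in both replicates.

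At the summits themselves, 3 of the 8 distinct pooled summits in the 6 windows had a GATA site within 50 bp, compared with 24.3% of all pooled summits. In replicate 1 it was 3 of 4 distinct summits, compared with 25.9% of all, and in replicate 2 it was 2 of 3, compared with 31.4%. All of those with a site were the dpy-10, dpy-2 and dpy-9 peaks described above. The whole lists include background rows, and stronger or shared peaks had sites more often. The share was 36.2% of replicate 1 peaks overlapped in replicate 2, 44.9% of the 1014 strongest pooled peaks and 52.6% of IDR peaks.

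**Figure D1:**
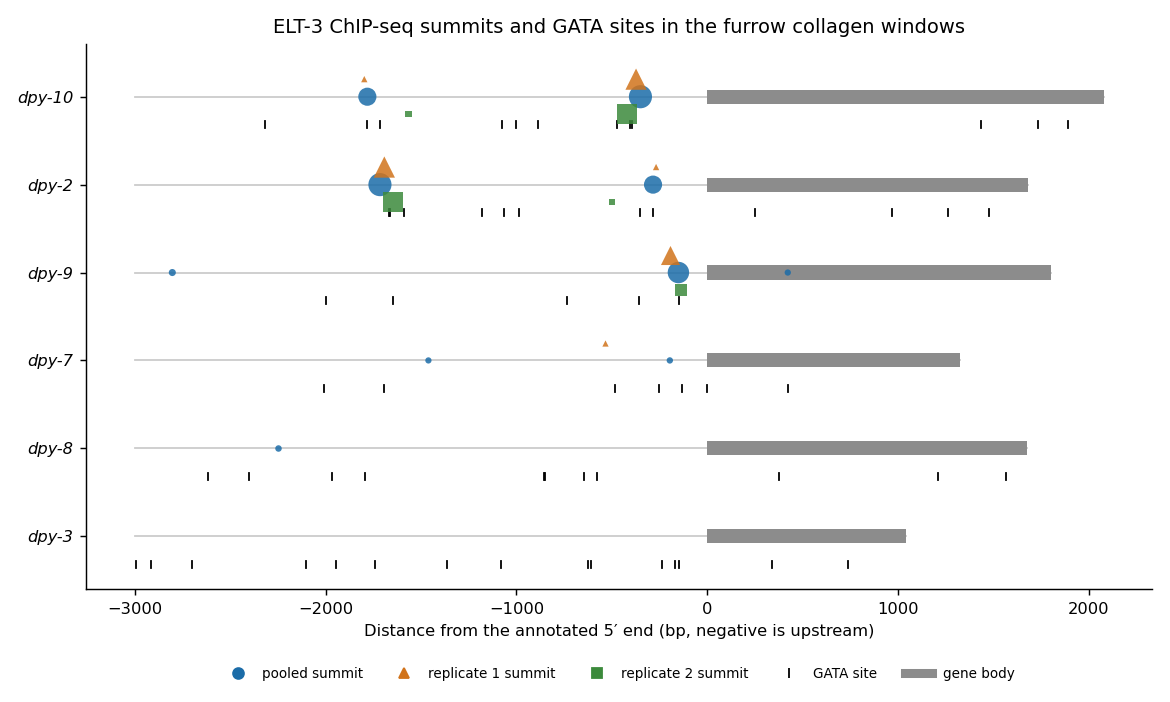
Summits and GATA sites in the 6 windows, by distance from the annotated 5′ end in bp. Circles are pooled summits, triangles replicate 1 and squares replicate 2, with larger marks for higher ranks within the list. Ticks are GATA sites and grey bars the gene bodies. The dpy-10 and dpy-2 rows show the same 2064 bp from either side. Large marks from all 3 lists lie together upstream of dpy-10, and the same marks appear in the dpy-2 row. Marks from all 3 lists also lie together upstream of dpy-9, where the replicate 2 mark is smaller than the others.

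Set against other genes, the IDR count of 0 of 6 stood beside 5.37% of all protein-coding genes with an IDR summit in the same kind of window. With so low a background, 0 of 6 does not mark the furrow collagens as different. The nearest IDR summits were 15.2 kb from the dpy-9 5′ end (next to sma-10), 17012 bp from dpy-7, 30.3 kb from dpy-3, 71.0 kb from dpy-8, and 107.6 and 109.7 kb from dpy-2 and dpy-10. In the pooled list 5 of 6 had a summit, against 79.1% of all genes. In replicate 1 it was 4 of 6, against 59.4%, and in replicate 2 it was 3 of 6, against 30.9%. Peaks of replicate 1 that a replicate 2 peak overlapped by at least 1 bp were in the windows of 3 of 6, against 20.1%. Among the 1014 strongest pooled peaks, as many as the IDR set holds, it was 2 of 6, against 5.94%. That last count is 1 peak, in the windows of both dpy-10 and dpy-2, and the count of 3 shared genes likewise rests on 2 loci. Member windows were 4043 to 5079 bp long, with a median of 4676.5 bp, against a median of 5027 bp over all genes.

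Many peaks as strong as these were not in the IDR set. Of the 200 pooled peaks within 100 ranks of the dpy-10 peak, 87 (43.5%) overlapped an IDR peak. The share was 26.5% for its neighbours in replicate 1 and 40.5% in replicate 2. Taking both replicates together, 609 replicate 1 peaks had at least the rank of the dpy-10 peak and overlapped a replicate 2 peak that did too, and of these 458 (75.2%) overlapped the IDR set while 151 did not. The dpy-10 peak was 1 of these 151. Of the 950 shared peaks that overlapped the IDR set, 458 were as high as the dpy-10 peak in both replicates. The 950 include weak replicate 1 rows that lie beside a strong peak, because an overlap of 1 bp was enough. Why some strong shared peaks were outside the IDR set was not tested. For dpy-9 the shares were lower, at 14% of its pooled neighbours, 12.5% in replicate 1 and 9% in replicate 2. Of 1445 shared peaks at least as high as the dpy-9 peak in both replicates, 49.5% overlapped the IDR set.

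**Figure D2:**
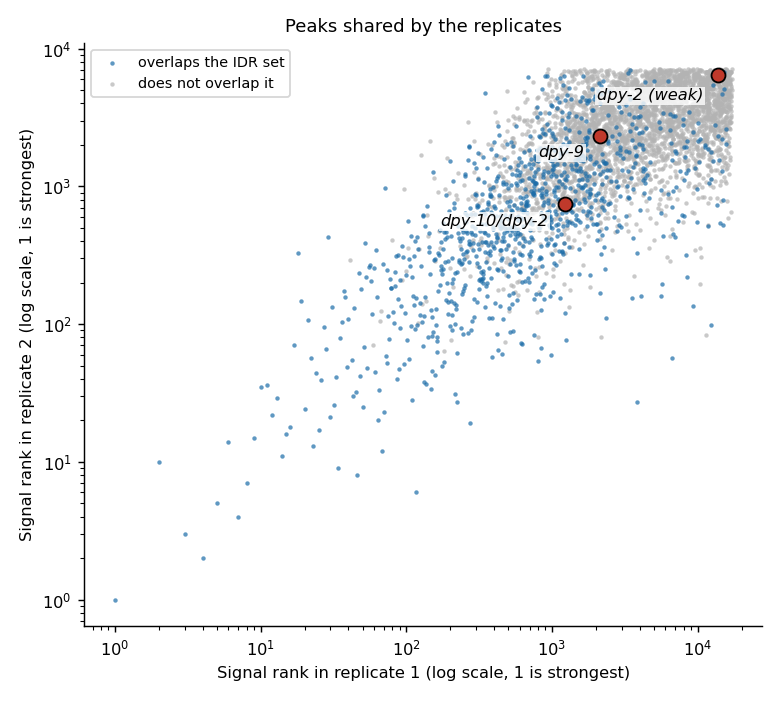
Rank in replicate 1 (x) and replicate 2 (y) of each replicate 1 peak overlapped in replicate 2, on log axes where 1 is strongest. Blue peaks overlap the IDR set and grey ones do not, and red marks are peaks in furrow collagen windows. The dpy-10/dpy-2 peak, at ranks 1217 and 739, lies where blue and grey mix, dpy-9 at 2140 and 2331 lies where grey is common, and the weak peak next to dpy-2 is at the far end of both lists.

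Other cuticle collagens had peaks about as often as genes in general. Of 170 collagen genes outside the furrow group (all genes named col, and a list of 17 matched genes known for body shape, blisters or stage-specific expression), 11 (6.47%) had an IDR summit in the window, at 10 distinct peaks. The highest signals were at col-62 (95.4, closer to C15A11.7), col-115 (87.3, closer to mec-17), col-10 and col-145 (83.3, 1 peak), col-3 and col-117 (62.3, 1 peak), col-166 (61.8) and col-167 (59.5). Of the 17 shape and stage collagens, only col-10 was among them. Shared replicate peaks lay in the windows of 35 of the 170 (20.6%).

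By their strongest pooled peak, the furrow collagens fell at both ends of the collagens. The dpy-10/dpy-2 peak was outranked by those of 10 other collagen genes and the dpy-9 peak by those of 19, out of 133 other collagen genes with any pooled summit, whose median best rank was 9682. The dpy-8 and dpy-7 rows were outranked by 119 and 120. In replicate 1, dpy-10 and dpy-2 were outranked by 15 of 97, dpy-9 by 24, and dpy-7 by all 97. In replicate 2, dpy-10 and dpy-2 were outranked by 10 of 48 and dpy-9 by 21. The order of the dpy-10/dpy-2 and dpy-9 peaks was therefore alike in both replicates, with the dpy-10/dpy-2 peak ahead. The weaker peak next to dpy-2 ranked below the dpy-9 peak in every list.

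**Figure D3:**
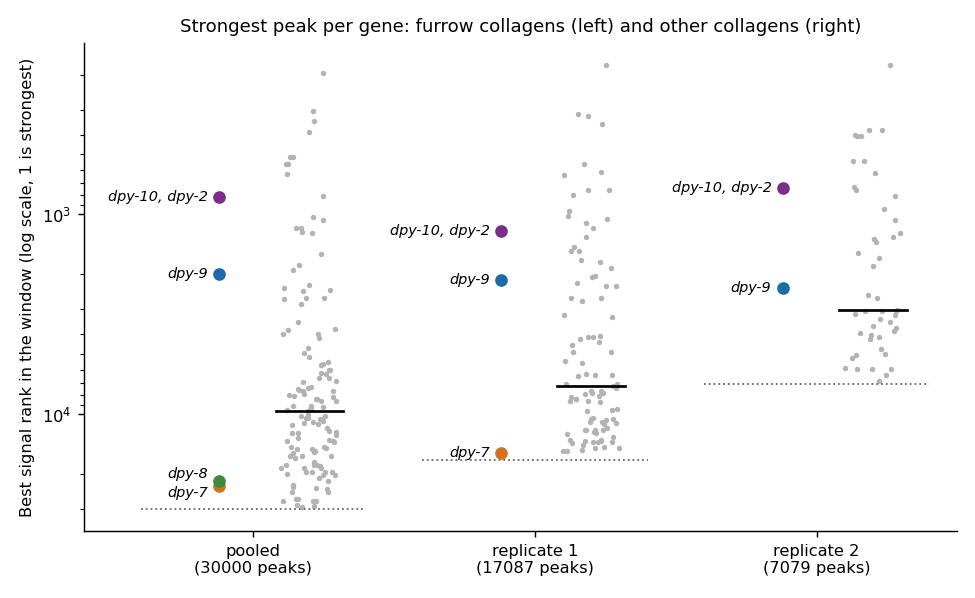
Rank of the strongest peak in each gene's window (log axis, 1 at the top) in the pooled list and each replicate. Labelled points are furrow collagens and grey points other collagens, with a black line at their median and a dotted line at the list's length. The points for dpy-10, dpy-2 and dpy-9 lie above the median of the other collagens in all 3 lists, and dpy-7 and dpy-8 lie below it where they have a point.

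Some of the genes listed for the responses to furrow loss had IDR peaks. The lists hold regulators, such as wdr-23, and not only genes that furrow loss switches on. Of the 29 genes listed for the 3 responses (here the stress response genes), 9 had an IDR summit in the window. These were at 10 distinct peaks, and 5.37% of all genes had such a summit. The other 20 had none. Among the strongest pooled peaks the counts were 2 of 6 furrow collagens and 9 of 29 response genes, against 5.94% of all genes. In the antimicrobial list it was 3 of 10, all from 1 peak (signal 133) in the windows of nlp-31, nlp-34 and nlp-30, which encode epidermal peptides. In the osmotic list it was 3 of 9: tps-2 (67.0) and tps-1 (62.9), which encode trehalose phosphate synthases, and osm-11 (51.7), which encodes a secreted Notch co-ligand. In the detoxification list it was 3 of 10, namely wdr-23, which encodes an inhibitor of the stress factor SKN-1 (81.8), ugt-11, a glucuronosyltransferase gene (65.7, closer to ugt-9), and dhs-8, a dehydrogenase gene (56.2, closer to cysl-2). The lists were chosen with earlier results of these data known, so these counts are descriptions. Longer windows can hold more summits, and window lengths were not compared for these lists.

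The usual reporter genes of furrow loss were not among them. The pooled peak 103 bp upstream of nlp-29, an antimicrobial peptide gene, had a signal of 40.6 and rank 2059. It ranked 1715 in replicate 1 and 2793 in replicate 2. At gpdh-1, which encodes the glycerol-producing enzyme of the osmotic response, the strongest pooled peak was 99 bp upstream, with a signal of 36.6 and rank 2474, and the same position ranked 3299 in replicate 2. The strongest replicate 1 peak of gpdh-1 was a different one, 1408 bp upstream at rank 2402. At gst-4, a glutathione transferase gene, the strongest pooled peak ranked 6382 and was closer to gst-3, the strongest in replicate 1 ranked 4293 and was closer to dhs-12, and replicate 2 had no summit in the window. In all 3 lists the dpy-10 peak outranked those at nlp-29 and gpdh-1. The dpy-9 peak outranked both in the pooled list and replicate 2, but not nlp-29 in replicate 1. These ranks are of summits inside each window. Outside the nlp-29 window, a summit in the window of nlp-28 had nlp-29 as its nearest 5′ end and ranked 1428 in the pooled list, 2472 in replicate 1 and 1321 in replicate 2, so it outranked dpy-9 in the pooled list and replicate 2.

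**Figure D4:**
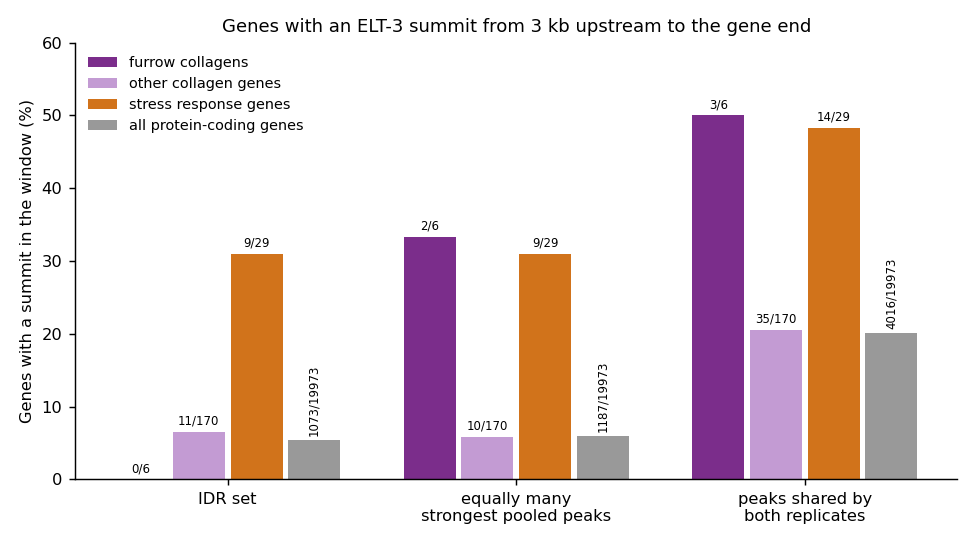
Percentage of genes with a summit in the window, for furrow collagens, other collagens, stress response genes and all protein-coding genes, in the IDR set, in equally many of the strongest pooled peaks, and among replicate 1 peaks overlapped in replicate 2. Numbers above the bars are genes with a summit out of all genes in the group; the furrow collagens have 0 of 6 in the IDR set, 2 of 6 among the strongest pooled peaks and 3 of 6 among shared peaks.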

How the data were processed

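Peak lists from ChIP-seq of ELT-3 in whole L1 larvae (2 biological replicates) were used as deposited on ce11. Per the deposited records, each replicate and the pool of both were called against a control, with background rows kept, as input to IDR; on ce11 no IDR peak has the boundaries of a pooled peak. The sources used here name no aligner, peak caller or threshold. Of the values the authors deposited, the signal of each peak gave ranks within a list, and the q-value score served only as another ranking. Read depth is unknown. The ce10 lists were not used.

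Genes came from Ensembl release 115 and sequence from WBcel235, the same assembly as ce11. Coordinates are 1-based. Summits were assigned to windows from 3 kb upstream of a gene's outermost 5′ end to its other end, and 1 summit could count for several genes. GATA sites were searched within 50 bp of summits. The members and lists were chosen with earlier results of these data known. The 6 furrow collagens are always named, then up to 8 genes per list with an IDR summit by signal, the genes nearest to member summits, and elt-3. The reporters nlp-29, gpdh-1 and gst-4, nlp-28, the genes dpy-31, dpy-11, pdi-2, sta-2 and snf-12, T14B4.14, and the neighbours named beside other genes' peaks fall outside that rule; they were picked once their values were known. Alternatives covered peak sets, windows, overlaps, motifs and ranking. Of the listed symbols 1, ram-4, matched no gene. Python 3.11.15, numpy 2.4.6, pandas 2.3.3 and matplotlib 3.10.9 were used. Window, overlap and motif searches were tested on simulated data.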

Additional observations from a re-analysis of the deposited data

How the results depend on the processing

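The IDR count of 0 of 6 furrow collagens held with the upper 50% of the IDR set by signal, with IDR peaks overlapped in both replicates, in each of the other 3 windows, by nearest 5′ end, and with any overlap of the peak. It was 2 with the 1014 strongest pooled peaks, and 0 to 2 with a single replicate (2 without replicate 1, 0 without replicate 2). In both cases the genes were dpy-10 and dpy-2, through 1 peak. The count of 2 among the strongest pooled peaks was 1 when windows reached only 1500 bp before and 500 bp after the 5′ end, and 1 by nearest 5′ end, and 0 to 2 with a single replicate (0 without replicate 2). The count of 5 with any pooled summit was 3 in the upper 50% of the pooled list, and 3 to 4 with a single replicate (3 without replicate 1). The 3 genes with a peak in both replicates stayed 3 under each of the 3 other criteria. Pooled summits with a site were 1 of 8 for AGATAA and 7 of 8 for GATA alone, against 6.99% and 51.6% of all pooled summits. Furrow genes with a site near the start were 5 of 6 at 500 bp, 6 at 1000 bp and 6 for GATA alone. The shares of all genes were 74.2%, 90.9% and 86.6%. Other collagens with an IDR summit fell to 7 in the upper 50% of the IDR set by signal, where the share of all genes fell to 2.96%. Stress response genes ranged from 6 by nearest 5′ end, against 4.24% of all genes, to 10 with windows from 5 kb upstream, against 7.01%. Without a replicate, other collagens were 11 to 13, against 5.89% to 5.94% of all genes, and sites were 2 to 3. Ranked by the q-value score, whose scale is not stated and which is below 0 for many pooled rows, dpy-7 was at 8877 in the pooled list through a row with a score of -0.065, a different row (rank 28644 by signal) from its best by signal, and the dpy-10/dpy-2 peak of replicate 2 was at 1, a score tied among 898 peaks; the other 9 best ranks moved by less than 1.5 times. The cause of these changes was not tested. With read depth unknown, a missing peak cannot be told from one too weak to be listed.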

Other observations

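Genes that process collagen had IDR summits in the same window in 3 of 12 cases, against 5.37% of all genes. They were adt-2, a secreted metalloprotease gene (signal 109), mlt-7, a peroxidase gene (68.0), and bli-4, a proprotein convertase gene (53.1). Without an IDR summit, dpy-31, the astacin protease gene for collagen C-terminal cleavage, had a pooled peak at rank 683, dpy-11, a thioredoxin-like gene, at 911, and pdi-2, a disulfide isomerase gene, at 1119. Best pooled ranks of the other genes on this list without an IDR summit were lower, from 2047 to 21106. In replicate 1 the strongest peaks in the dpy-31 and pdi-2 windows were at other positions. Shared replicate peaks lay in the windows of 8 of the 12 genes, against 20.1% of all genes. Longer windows can hold more summits, and the windows of mlt-7, adt-2 and bli-4 held 12, 11 and 10 pooled summits. Window lengths were not compared for this list or for the signalling genes below.

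Among 14 signalling and factor genes of the stress responses, 3 had IDR summits, against 5.37% of all genes: elt-3 itself (281), sek-1, a MAP kinase kinase gene (64.3), and nipi-3, a Tribbles kinase gene (56.5). For sta-2, a STAT-like factor gene of the epidermal antimicrobial response, the strongest pooled peak was 152 bp upstream at rank 973, and it ranked 1116 in replicate 1 and 1097 in replicate 2. For snf-12, which encodes a transporter-like partner of STA-2, the ranks were 1289, 2330 and 1338. Of the 14 genes, 13 had a pooled summit. Best pooled ranks of the others without an IDR summit ran from 588 to 19060. The elt-3 window held 4 IDR summits, and the strongest ranked 1 of 1014. The strain also carries the wgIs75 transgene for tagged ELT-3. Peak lists cannot tell signal of the elt-3 gene from any that comes from the transgene.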
